A study of Mus musculus with 9 samples.

Results

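Integrins are cell surface receptors made of 1 alpha and 1 beta chain. The genes described are 10 integrin chains of mouse CD8+ T cells, found by their symbols among the 24391 genes of the deposited tables: the beta chains Itgb1, Itgb2 and Itgb7 and the alpha chains Itga1, Itga2, Itga4, Itga6, Itgae, Itgal and Itgav. All 10 were listed in both count tables. Between them these chains form the main integrins of T cells. Itgal pairs with Itgb2 as LFA-1, which binds ICAM-1 on target and antigen-presenting cells. Itga4 pairs with Itgb1 as VLA-4, the receptor for VCAM-1 and fibronectin, or with Itgb7 as the gut homing receptor for MAdCAM-1, and Itgae pairs with Itgb7 to bind E-cadherin on epithelia. Itga1 and Itga2 join Itgb1 as collagen receptors, Itga6 joins it as a laminin receptor, and Itgav takes Itgb1 or other beta chains to bind vitronectin, fibronectin and latent TGF-beta. On resting T cells integrins bind weakly, and signals from the antigen receptor or chemokine receptors switch them to a form of high affinity.

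RNA was sequenced from CD8+ T cells that had been activated in culture for 72 h in medium with interleukin 2 at 100 U/mL, either in the presence of an inhibitor of the histone demethylase LSD1 (LSD1i, 4 libraries) or without it (not treated, NT, 5 libraries). The comparison asked which genes differ between cells activated with and without the inhibitor. The sources used here do not give the name or dose of the inhibitor, the mouse strain or the mode of activation. They also leave unsaid whether the numbered replicates stem from different mice or cultures. The p-values below therefore cover at most the scatter among the libraries at hand, which could be technical. The raw and the batch-corrected table give opposite group names to 4 libraries. Matched by the genes with no read, replicates 1 and 2 of LSD1i in the batch-corrected table bear the names of NT 1 and NT 2 in the raw table, and those of NT bear the names of LSD1i 1 and LSD1i 2. The labels do not say which names are right. The other 5 libraries, replicates 3 to 5, carry the same names in both. Unless stated otherwise, names and values below are those of the batch-corrected table, in CPM (counts of a gene relative to the library total, scaled by the TMM method), and each direction holds for those names.

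Raw library totals ranged from 15163983 to 29245278 counted reads. The library NT 1 stood apart in that 13.4% of its raw reads fell on the ribosomal precursor Rn45s, against 1.66% to 2.87% in the others. The ratio of batch-corrected to raw counts split the libraries into replicates 1 and 2 and replicates 3 to 5, taken here as the batches, and values within them are set beside the pooled ones. The cells carried the markers of their label. Cd8a was at 454 to 499 CPM in LSD1i and 338 to 412 CPM in NT, Cd4 had at most 5 counts in any library, and Ncr1 had 0. Summed markers of platelets, which also use Itga2 with Itgb1, were at 54.0 to 86.3 CPM in LSD1i and 34.1 to 81.2 CPM in NT. Most of this was Itgb3, and the defining platelet genes Pf4, Ppbp and Gp9 had at most 5, 2 and 1 counts. Of 7 natural killer (NK) cell markers, 3 had no count in any library (Ncr1, Klra8 and Klra4), and the sum, at 65.2 to 84.9 CPM in LSD1i and 39.8 to 50.6 CPM in NT, was nearly all Eomes, which activated CD8+ T cells also express. Eomes was called higher in LSD1i (0.82, adjusted p = 0.00108). Too low to test were Tyrobp (mean 0.284 CPM in LSD1i and 0.152 in NT), Fcer1g (0.198 and 0.468) and Klrb1c (0.0759 and 0.0620). Summed myeloid markers were at 6.55 to 9.66 CPM in LSD1i and 5.87 to 9.42 CPM in NT. Of 7 B cell markers, Cd22 was called higher in LSD1i (3.52, adjusted p = 0.00365) and Cd79b lower (−0.43, adjusted p = 0.0317), with a sum of 10.1 to 11.6 CPM in LSD1i and 11.4 to 12.5 CPM in NT, and the other 5 had at most 4 counts in a library. Of 7 mast cell markers, 6 had under 10 counts in every library, and the sum of 18.2 to 77.7 CPM in LSD1i and 9.61 to 36.1 CPM in NT was nearly all Kit, which did not pass (adjusted p = 0.297). In raw counts of replicates 3 to 5 alone Kit passed in edgeR (log2 fold change 1.66, adjusted p = 0.0373), and in replicates 1 and 2 it was at −0.32. The part of these markers in the results was not tested. In bulk RNA, fewer cells that express a gene and less RNA per cell cannot be told apart.

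The integrin chains spanned a wide range of levels. Given per kilobase of the longest coding transcript in GENCODE M21, Itgb2 was highest, at 93.5 ± 6.21 CPM per kb in LSD1i and 97.0 ± 9.08 CPM per kb in NT (SD, n = 4 and 5 throughout), and Itgb7 followed at 84.9 ± 8.55 in LSD1i and 77.0 ± 8.31 in NT. Both are beta chains found mainly on white blood cells, and Itgb2 was above Itgb7 in all 9 libraries although their ranges overlapped. Itgb1 came next at 40.8 ± 1.98 CPM per kb in LSD1i and 53.4 ± 1.599 in NT, then Itgal at 32.8 ± 4.63 in LSD1i and 38.3 ± 13.9 in NT, and Itgav at 19.8 ± 2.93 in LSD1i and 26.7 ± 6.87 in NT. Itga4 was at 7.27 ± 1.42 CPM per kb in LSD1i and 11.3 ± 4.26 in NT, close to Itga6 at 8.98 ± 0.724 in LSD1i and 11.1 ± 1.43 in NT. By this length their order turned between the groups, and Itga4 was above Itga6 in 2 of the 9 libraries. Per kilobase of all annotated exons the NT means lay further apart, at 7.91 for Itga4 and 5.30 for Itga6. The remaining chains were scarce. Itgae was at 0.194 ± 0.0701 CPM per kb in LSD1i and 0.242 ± 0.0757 in NT, Itga2 at 0.134 ± 0.0377 in LSD1i and 0.0635 ± 0.0105 in NT, and Itga1 had at most 6 raw reads in a library. Over the 9 libraries the ranges of neighbours overlapped except between Itgb7 and Itgb1, between Itga6 and Itgae and between Itga2 and Itga1.

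**Figure D1:**
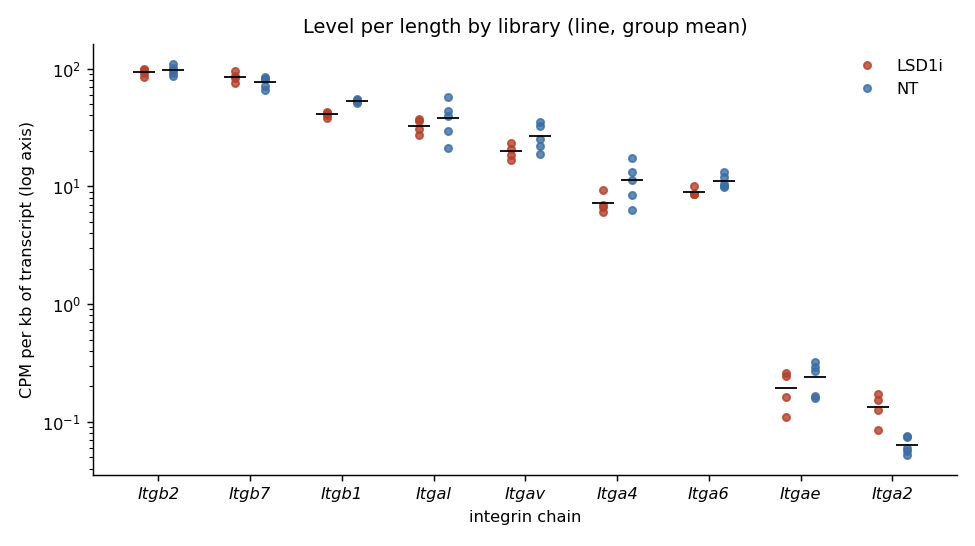
Level of 9 integrin chains per kilobase of transcript (log axis) in each library of the batch-corrected table, LSD1i in red left of NT in blue, with a line at each group mean. Itgb2, Itgb7 and Itgb1 lead, and Itgae and Itga2 lie below 1 CPM per kb. Itga1, with libraries at 0, is not drawn.

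Of the 10 chains, 9 passed the low-count filter and were tested with edgeR's quasi-likelihood test across all genes, with Benjamini-Hochberg adjustment at 0.05. The fit took the batch-corrected counts without a batch term. Its p-values therefore leave out the batch scatter that the correction removed and the error of the correction itself, and can be too small. Itgb1 fell and Itga2 rose, and the other 7 did not pass. Across all 11981 tested genes 3.31% were called, 2.15% higher and 1.16% lower in LSD1i. The median log2 fold change of the 9 chains was −0.31, with 7 of 9 below 0. The median of all tested genes was −0.02, and 54.4% of them were below 0. In raw counts of replicates 3 to 5 Itga2 (1.45), Itgal (0.08), Itgb2 (0.06) and Itgb7 (0.26) lay above 0 and the other chains below. With the raw table's own names only Itgae (−0.37) and Itgb1 (−0.01) lay below 0. Other fits called between 0 and 3 chains. With raw counts and a batch term 1 of 9 was called, Itgb1, where 1.85% of all genes were (1.39% higher and 0.453% lower), and in replicates 3 to 5 alone 0 of 9, where 0.969% were (0.803% higher and 0.166% lower), with 2 of the 9, Itga2 and Itgb1, at an unadjusted p under 0.05. DESeq2 on the batch-corrected table called 1 of 9, again Itgb1, where 4.85% were called (2.97% higher and 1.88% lower). In the raw counts as named in the raw table, edgeR called 0 of the 9 chains and 0 of 11916 genes, and 0 of the 9 had an unadjusted p under 0.05.

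Itgb1, the beta chain shared by the receptors for VCAM-1, fibronectin, collagens and laminins, was the most clearly changed member. It was at 146, 163, 159.7 and 153 CPM in LSD1i 1 to LSD1i 4, and at 212, 201, 206, 204 and 196 CPM in NT 1 to NT 5. The groups did not overlap, each LSD1i library lying below each NT library, a pattern shown by 3.46% of all tested genes in that direction. The means were 156 ± 7.56 CPM in LSD1i and 204 ± 6.10 CPM in NT, a log2 fold change of −0.39 ± 0.07 (SE, adjusted p = 0.00938). Uncorrected counts with the same names gave 148, 167, 150.2 and 146 CPM in LSD1i and 209, 204, 194, 194 and 187 CPM in NT, again without overlap, and with the batch as a term the fall passed (−0.38 ± 0.08, adjusted p = 0.0319). It was −0.41 in replicates 1 and 2 and −0.36 in replicates 3 to 5, the libraries named alike in both tables, where neither batch alone passed (adjusted p = 0.926 and 0.177). The call rested on LSD1i 1, without which the adjusted p was 0.0534, and with the raw table's own names the fold change was −0.01 (adjusted p = 0.999).

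Itga2, the alpha chain of the collagen and laminin receptor VLA-2, first known as a very late activation antigen of T cells, was the member that rose, from a low level. It was at 0.607, 1.08, 1.23 and 0.897 CPM in LSD1i 1 to LSD1i 4, and at 0.534, 0.527, 0.426, 0.370 and 0.400 CPM in NT 1 to NT 5. All 4 LSD1i libraries were above all 5 NT libraries, as for 4.41% of all tested genes in that direction. The log2 fold change was 1.07 ± 0.26, with an adjusted p of 0.0498 that lay just inside the threshold. The raw reads behind it were 5, 12, 30 and 30 in LSD1i and 8, 5, 13, 10 and 13 in NT. In uncorrected CPM the groups overlapped, since LSD1i 1 was at 0.262 CPM, under all 5 NT libraries (0.283 to 0.614 CPM). In replicates 3 to 5 alone the fold change was 1.45 ± 0.32 without passing (adjusted p = 0.105), in replicates 1 and 2 the gene was too low to test, and with the batch term it was 1.14 ± 0.31 (adjusted p = 0.114). Itga2 is also known as the NK cell marker CD49b, and the part in this result of the higher NK sum given above was not tested. Without LSD1i 1 the call held, and leaving out any other single library ended it (adjusted p up to 0.151), as did DESeq2 (adjusted p = 0.101).

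The windows just before the start sites of these members, which moved in opposite directions, are shown to compare their base composition. They are the 250 bases upstream of the start in RefSeq (GRCm38.p6, the build of that table only), printed 5′ to 3′ along the gene's strand, and capitals mark a GC box (GGGCGG on either strand). The Itgb1 window is chr8:128685404-128685653 on the + strand and the Itga2 window is chr13:114932101-114932350 on the − strand.
Itgb1: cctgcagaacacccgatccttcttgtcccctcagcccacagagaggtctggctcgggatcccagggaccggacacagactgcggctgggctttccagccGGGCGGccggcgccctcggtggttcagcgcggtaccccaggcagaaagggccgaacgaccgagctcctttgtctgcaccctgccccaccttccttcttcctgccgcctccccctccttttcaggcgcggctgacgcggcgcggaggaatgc
Itga2: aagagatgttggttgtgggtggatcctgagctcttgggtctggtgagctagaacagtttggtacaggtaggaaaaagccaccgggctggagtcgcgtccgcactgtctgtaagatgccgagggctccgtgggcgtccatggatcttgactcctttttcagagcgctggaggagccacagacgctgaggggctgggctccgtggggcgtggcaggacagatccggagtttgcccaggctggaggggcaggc
The Itgb1 window held 21 CpG dinucleotides at 68.0% G and C and 1 GC box, which begins 151 bases before the start. The Itga2 window held 12 CpG dinucleotides at 60.8% and no GC box. Over 27025 such windows the median was 6 CpG dinucleotides and 52.0% G and C, and 32.9% held a GC box. Neither window held, on either strand, the TATA box letters TATAAA (present in 13.0% of all windows), the Runx core TGTGGT (in 14.2%), the AP-1 site TGACTCA (in 4.43%), the letters AAATCAC searched for Gfi1 (in 2.71%) or the Ets site ACCGGAAG (in 1.70%). Entries were at hand for 6 of the 10 members.

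**Figure D2:**
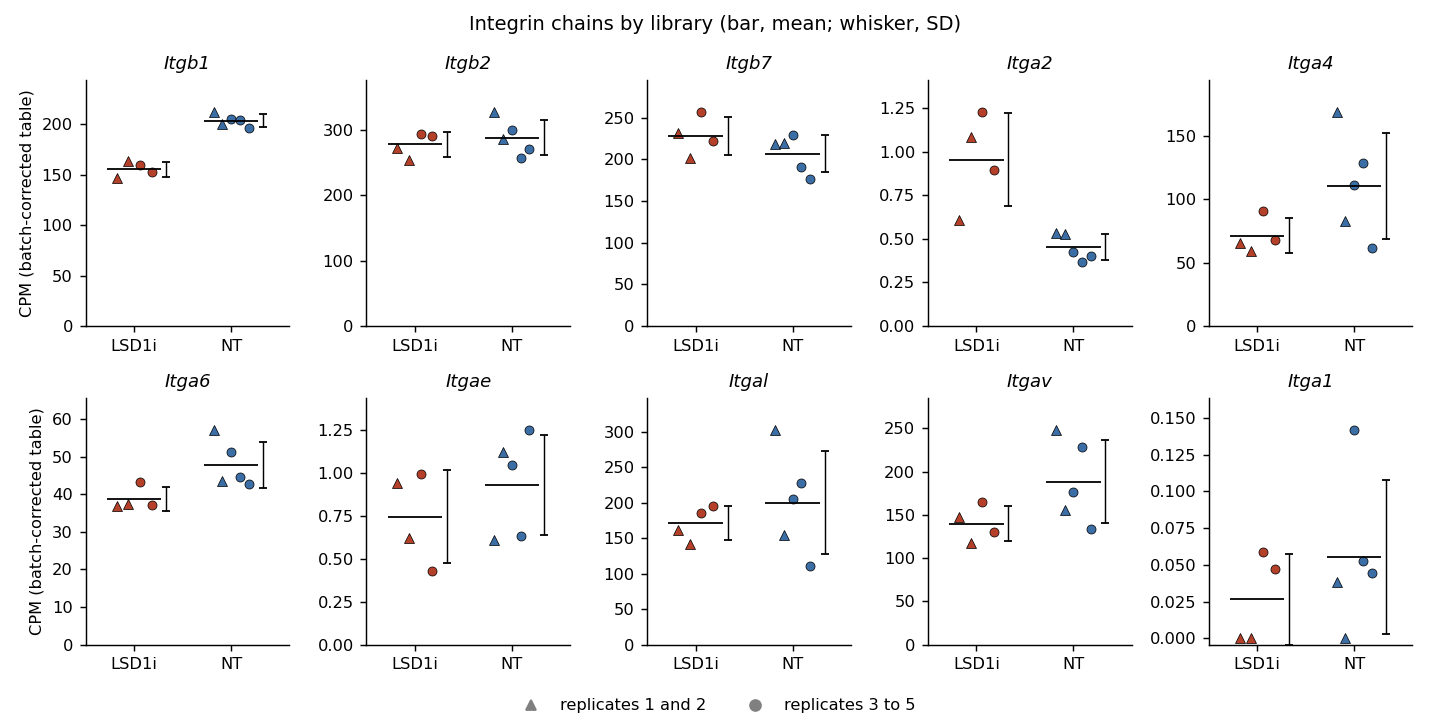
CPM of each integrin chain in each library of the batch-corrected table, LSD1i left of NT, with a bar at the mean and a whisker for the SD (triangles, replicates 1 and 2, and circles, replicates 3 to 5). Itgb1 (146 to 163 CPM in LSD1i, 196 to 212 CPM in NT) and Itga2 are the chains whose groups do not overlap.

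The partners of Itgb1 in lymphocyte homing lay lower on average in LSD1i, without passing. Itga4 was at 65.6, 59.3, 91.0 and 68.1 CPM in LSD1i 1 to LSD1i 4, and at 169, 82.7, 111, 129 and 61.4 CPM in NT 1 to NT 5. NT 1 was far above the rest while NT 5 lay among the LSD1i libraries, so the groups overlapped. The log2 fold change was −0.64 ± 0.25 (adjusted p = 0.255), −0.43 without NT 1, −1.05 in replicates 1 and 2 and −0.35 in replicates 3 to 5. The annotation places 1124 exonic bases of Itga4 under exons of Cerkl on the other strand, and with no strand setting stated the reads of the pair cannot be told apart there. Cerkl itself was at 1.52 to 2.69 CPM in LSD1i and 2.32 to 3.58 CPM in NT.

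Itgav, whose dimers bind RGD motifs and release active TGF-beta, followed a like pattern. It was at 148, 118, 165 and 129.6 CPM in LSD1i 1 to LSD1i 4, and at 248, 155, 177, 229 and 133 CPM in NT 1 to NT 5. NT 1 and NT 4 were the highest libraries for Itgav as for Itga4, NT 5 was the lowest of the NT libraries for both, and the groups overlapped. The log2 fold change of −0.43 ± 0.18 did not pass (adjusted p = 0.289), and was −0.65 in replicates 1 and 2 and −0.30 in replicates 3 to 5.

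Itga6, the laminin receptor chain, varied less. It was at 36.9, 37.3, 43.4 and 37.2 CPM in LSD1i 1 to LSD1i 4, and at 57.0, 43.5, 51.3, 44.7 and 42.6 CPM in NT 1 to NT 5. LSD1i 3 alone reached into the NT range. Its log2 fold change was −0.31 ± 0.11 (adjusted p = 0.179), −0.46 in replicates 1 and 2 and −0.21 in replicates 3 to 5. The signs of the fold changes of Itga4, Itgav and Itga6 all turned with the raw table's own names, to 0.18, 0.05 and 0.20.

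The LFA-1 chains, on which the contact between a killer cell and its target depends, gave no call. Itgb2 was at 273, 254, 294 and 289.9 CPM in LSD1i 1 to LSD1i 4, and at 327, 286, 299, 258 and 271 CPM in NT 1 to NT 5. The groups lay over one another, with a log2 fold change of −0.05 ± 0.09 (adjusted p = 0.863). Itgal was at 161, 142, 186 and 196 CPM in LSD1i 1 to LSD1i 4, and at 302, 155, 205, 228 and 111 CPM in NT 1 to NT 5. The NT libraries spread over the whole LSD1i range and beyond it on both sides, from NT 1 at the top to NT 5 at the bottom. The log2 fold change of Itgal was −0.23 ± 0.24 (adjusted p = 0.758), −0.85 in replicates 1 and 2 and 0.08 in replicates 3 to 5, and without NT 1 it was −0.03. A treatment by batch interaction, fitted to raw counts with these names, did not pass for Itgal (0.90 ± 0.42, unadjusted p = 0.0592, adjusted p = 0.764) or any of the other 8 chains in edgeR, and 0 of the 9 had an unadjusted p under 0.05. Over all 11916 genes the interaction called 0.0%, with 581 at an unadjusted p under 0.05.

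Itgb7, the beta chain of the gut homing and epithelial integrins, was at 231, 202, 257 and 222 CPM in LSD1i 1 to LSD1i 4, and at 218, 219.7, 229, 191 and 176 CPM in NT 1 to NT 5. LSD1i 3 was the highest library and NT 5 the lowest, with overlap between. The log2 fold change was 0.14 ± 0.10 (adjusted p = 0.623), −0.04 in replicates 1 and 2 and 0.26 in replicates 3 to 5. Itgae, known as CD103 and a marker of T cells that stay in epithelia, was at 0.938, 0.619, 0.995 and 0.425 CPM in LSD1i 1 to LSD1i 4, and at 0.610, 1.12, 1.04, 0.634 and 1.25 CPM in NT 1 to NT 5. The groups overlapped at a low level, with a log2 fold change of −0.33 ± 0.32 (adjusted p = 0.739). Itga1, known as CD49a and also found on resident T cells, had 0, 0, 1 and 1 raw reads in LSD1i and 1, 0, 6, 1 and 1 in NT and was not tested. A count of 0 allows up to 0.168 CPM in LSD1i 1, 0.151 CPM in LSD1i 2 and 0.198 CPM in NT 2 (3 counts of the library total, counting error only), so a difference was not detectable at this depth.

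**Figure D3:**
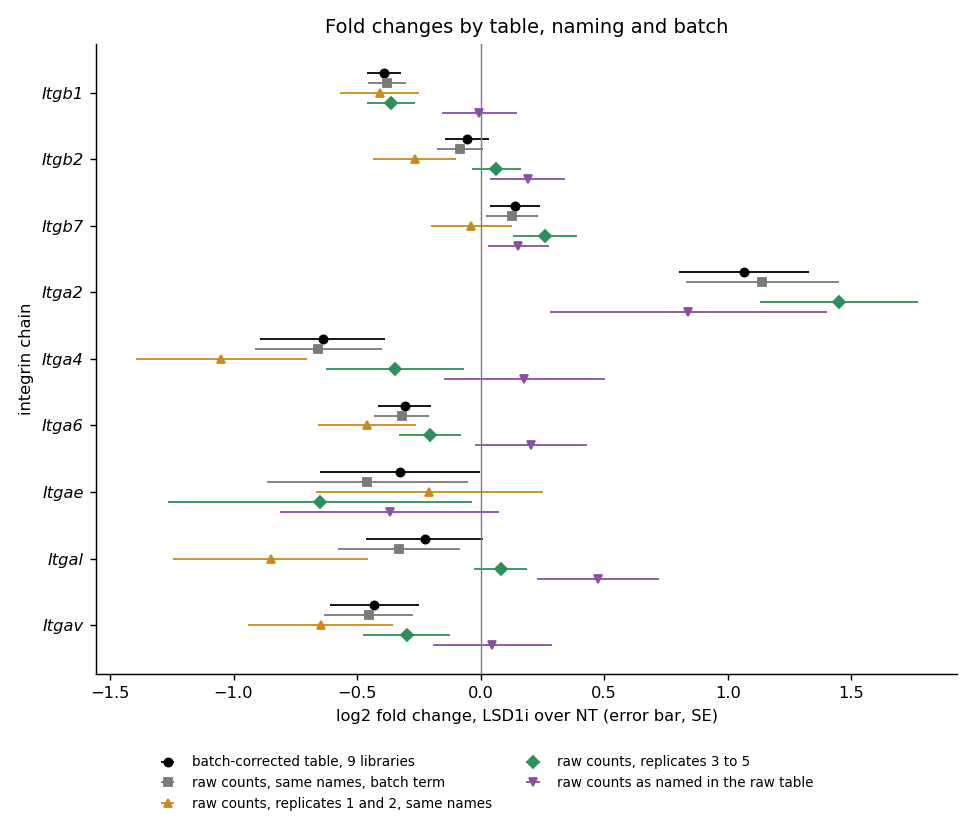
Log2 fold changes of LSD1i over NT for the 9 tested chains (x axis, with SE) in the batch-corrected table, in raw counts with the same names and the batch as a term, within each batch, and in raw counts with the raw table's own names. Itgb1 keeps −0.36 to −0.41 in the first 4 and is at −0.01 with the raw table's names. Itga2 has no value in replicates 1 and 2.

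Because Itgb1 changed and the other beta chains did not pass, the chains were also set against each other within each library, a ratio that depth scaling does not touch. These ratios are descriptions, chosen with earlier results known, and were not tested. Those over Itgb1 contain its lower values in LSD1i and are not independent of its call. The CPM of Itgb7 over that of Itgb1 was 1.58, 1.23, 1.61 and 1.45 in LSD1i 1 to LSD1i 4, and 1.03, 1.09, 1.11, 0.936 and 0.898 in NT 1 to NT 5. This ratio, not scaled by length, was higher in every LSD1i library than in any NT library. The mean difference was 0.53 on the log2 scale, and 0.62 in the raw counts of replicates 3 to 5. Itgb2 over Itgb1 was 1.86, 1.55, 1.84 and 1.90 in LSD1i and 1.54, 1.42, 1.46, 1.26 and 1.38 in NT, also without overlap, though NT 1 and LSD1i 2 nearly met. Itga4, which can pair with either Itgb1 or Itgb7, was at 0.284, 0.294, 0.354 and 0.308 of the CPM of Itgb7 in LSD1i and 0.776, 0.376, 0.484, 0.674 and 0.349 in NT, where LSD1i 3 and NT 5 overlapped. Against Itgb1 its ratio lay between 0.363 and 0.570 in LSD1i and between 0.313 and 0.795 in NT. The ratios of Itgav and Itga6 to Itgb1 and of Itgal to Itgb2 overlapped as well, with mean log2 differences of −0.01, 0.09 and −0.10.

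**Figure D4:**
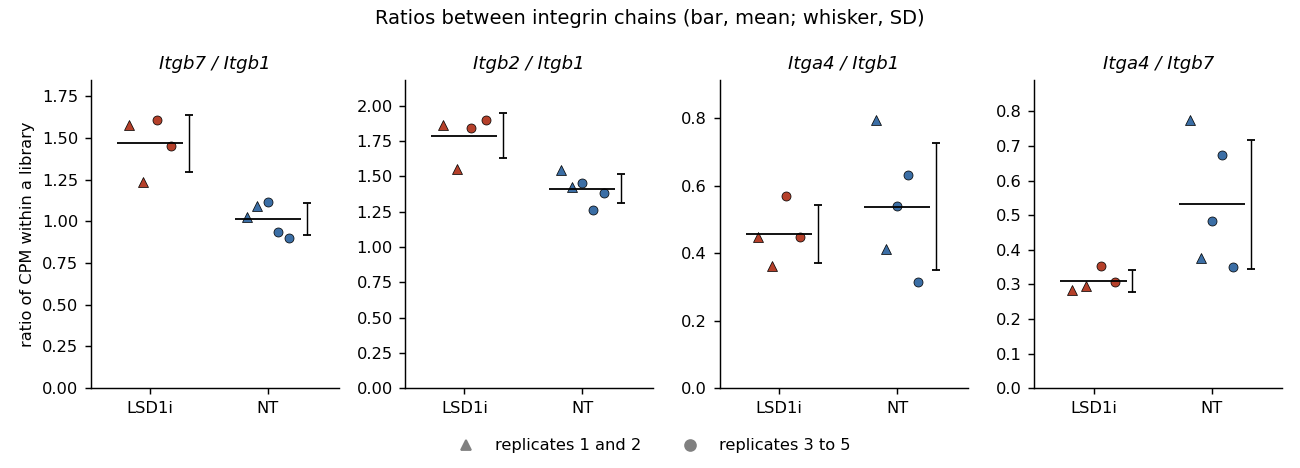
Ratio of CPM between pairs of integrin chains in each library of the batch-corrected table, LSD1i left of NT, with a bar at the mean and a whisker for the SD. Itgb7 over Itgb1 lies between 1.23 and 1.61 in LSD1i and between 0.898 and 1.11 in NT, and Itga4 over Itgb1 overlaps.

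Over all tested genes edgeR called 3.31% and DESeq2 4.85%. Of the 17 other integrin chains in the tables, 8 were tested and 0 were called by edgeR or by DESeq2, with 1 at an unadjusted p under 0.05 in edgeR. That gene was Itgb5, a beta chain that pairs with Itgav, at 0.760 ± 0.200 CPM in LSD1i and 0.387 ± 0.0780 CPM in NT (log2 fold change 0.97 ± 0.27, adjusted p = 0.0817). Itgb3, another beta partner of Itgav, best known from platelets, was at 73.6 ± 14.2 CPM in LSD1i and 56.1 ± 17.6 CPM in NT (0.39 ± 0.22, adjusted p = 0.485), with −0.14 in replicates 1 and 2 and 0.65 in replicates 3 to 5. Itga5, the fibronectin receptor chain, was at 4.21 ± 1.04 CPM in LSD1i and 5.66 ± 2.02 CPM in NT (−0.45 ± 0.26, adjusted p = 0.494).

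Genes of integrin activation and inside-out signalling carry the order to bind from the antigen receptor to the integrin tail. The median log2 fold change of the 31 tested was 0.04. Of them 1 rose and 0 fell, where 2.15% and 1.16% of all tested genes did. The gene was Skap1, an adaptor that brings the Rap1 module to LFA-1, at 143 ± 8.89 CPM in LSD1i and 107 ± 8.96 CPM in NT (0.42 ± 0.08, adjusted p = 0.0195). The batch term on raw counts left it called (adjusted p = 0.0446), and raw counts of replicates 3 to 5 alone did not (0.54, adjusted p = 0.103). In the batch-corrected table leaving out LSD1i 3 or LSD1i 4 ended the call (up to 0.0821). The tetraspanins Cd82 (0.27 ± 0.08, adjusted p = 0.0941) and Cd9 (0.38 ± 0.12, adjusted p = 0.115), which gather integrins in the membrane, did not pass.

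In the list of outside-in signalling and the adhesion plaque, 4 of 32 tested genes rose and 3 fell, and the median was 0.02. Over all tested genes 2.15% rose and 1.16% fell. Src, a kinase that phosphorylates plaque proteins, rose to 6.03 ± 1.56 CPM in LSD1i, against 1.82 ± 0.383 CPM in NT (1.71 ± 0.21, adjusted p = 0.00104). Bcar1, the scaffold p130Cas that Src phosphorylates, rose to 19.3 ± 4.01 CPM in LSD1i, against 7.96 ± 3.04 CPM in NT (1.26 ± 0.24, adjusted p = 0.0159). Its lymphoid relative Nedd9 fell to 67.8 ± 1.90 CPM in LSD1i, against 90.5 ± 3.28 CPM in NT (−0.42 ± 0.07, adjusted p = 0.00559). So 1 member of this scaffold family was higher and another lower, Nedd9 remaining the more abundant in CPM not scaled by length. Tns1, tensin 1, which ties beta chain tails to actin, fell (−0.69 ± 0.14), as did Pxn, the plaque adaptor paxillin (−0.31 ± 0.07), while the adaptor Cd2ap (0.35 ± 0.07) and the exchange factor Arhgef6 (0.35 ± 0.08) rose, with adjusted p-values of 0.0190 to 0.0394. In raw counts of replicates 3 to 5, which are part of the libraries behind these calls, all 7 had the same sign. There Src and Bcar1 passed (adjusted p = 0.0320 and 0.00996). With the batch term the calls of Bcar1 (adjusted p = 0.0999), Cd2ap (0.0738), Arhgef6 (0.0654) and Pxn (0.0997) were lost, and with the raw table's own names Tns1 and Pxn turned to 0.30 and 0.08. Leaving out 1 library ended the call of Bcar1 (LSD1i 4, adjusted p = 0.0533), of Tns1 (LSD1i 2, LSD1i 4 or NT 4, up to 0.0798), of Cd2ap and Arhgef6 (each LSD1i library, NT 2, NT 3 or NT 4, up to 0.0923 and 0.111) and of Pxn (each library but NT 5, up to 0.152).

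Of 42 genes for integrin ligands, 17 were tested, 2 rose and 2 fell, and the median was 0.03. The shares of all tested genes were 2.15% and 1.16%. Spp1, osteopontin, a ligand of Itgav and Itga4 integrins that T cells secrete, fell to 13.7 ± 1.96 CPM in LSD1i, against 30.8 ± 5.37 CPM in NT (−1.17 ± 0.15, adjusted p = 0.00116). Lama5, a laminin chain bound by Itga6 dimers, fell to 14.6 ± 3.51 CPM in LSD1i, against 30.4 ± 6.45 CPM in NT (−1.06 ± 0.19, adjusted p = 0.009). Nid1, nidogen 1, which links laminin to collagen in basement membranes, rose to 22.8 ± 10.8 CPM in LSD1i, against 4.02 ± 2.03 CPM in NT, and Cd40lg, which can also engage integrins, rose to 1.21 ± 0.280 CPM in LSD1i, against 0.0894 ± 0.110 CPM in NT. All 4 passed with the batch term (adjusted p = 0.00477 to 0.0214) and without any 1 library. In raw counts of replicates 3 to 5, again part of the libraries behind the calls, all 4 had the same sign. There Nid1 and Lama5 passed (adjusted p = 0.0213 and 0.0356), and Spp1 and Cd40lg did not (0.0656 and 0.152).

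Of the other adhesion molecules of T cells, 5 of 23 tested rose and 0 fell, with a median of 0.21. Among all tested genes 2.15% rose and 1.16% fell. Emb, embigin, an immunoglobulin family protein first described as a modulator of integrin-mediated adhesion, rose to 437 ± 46.1 CPM in LSD1i, against 242 ± 28.7 CPM in NT (0.85 ± 0.11, adjusted p = 0.00114). Slamf6, a receptor that binds itself between lymphocytes, rose by 1.63 ± 0.17 on the log2 scale (adjusted p = 0.000371), Alcam, the ligand of CD6, by 0.49 ± 0.09 (0.00997) and Amica1, the junctional adhesion molecule JAML, by 0.59 ± 0.14 (0.0488). Emb, Slamf6 and Alcam passed with the batch term and without any 1 library. In raw counts of replicates 3 to 5 Slamf6 passed (adjusted p = 0.0373), while Emb (0.0735) and Alcam (0.0821) did not. Amica1 did not pass with the batch term (adjusted p = 0.154), lost its call without any library but NT 3 (up to 0.128) and was at −0.05 with the raw table's own names.

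Of 27 tested genes of TGF-beta signalling and tissue residency, the setting in which Itgae is usually induced, 1 rose and 1 fell, and the median was −0.01. Across all tested genes 2.15% rose and 1.16% fell. S1pr1, the receptor that leads T cells out of lymph nodes, fell (−0.46 ± 0.10, adjusted p = 0.0327), a call lost with the batch term (adjusted p = 0.0720) and without each LSD1i library, NT 1, NT 2 or NT 3 (up to 0.117).

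**Figure D5:**
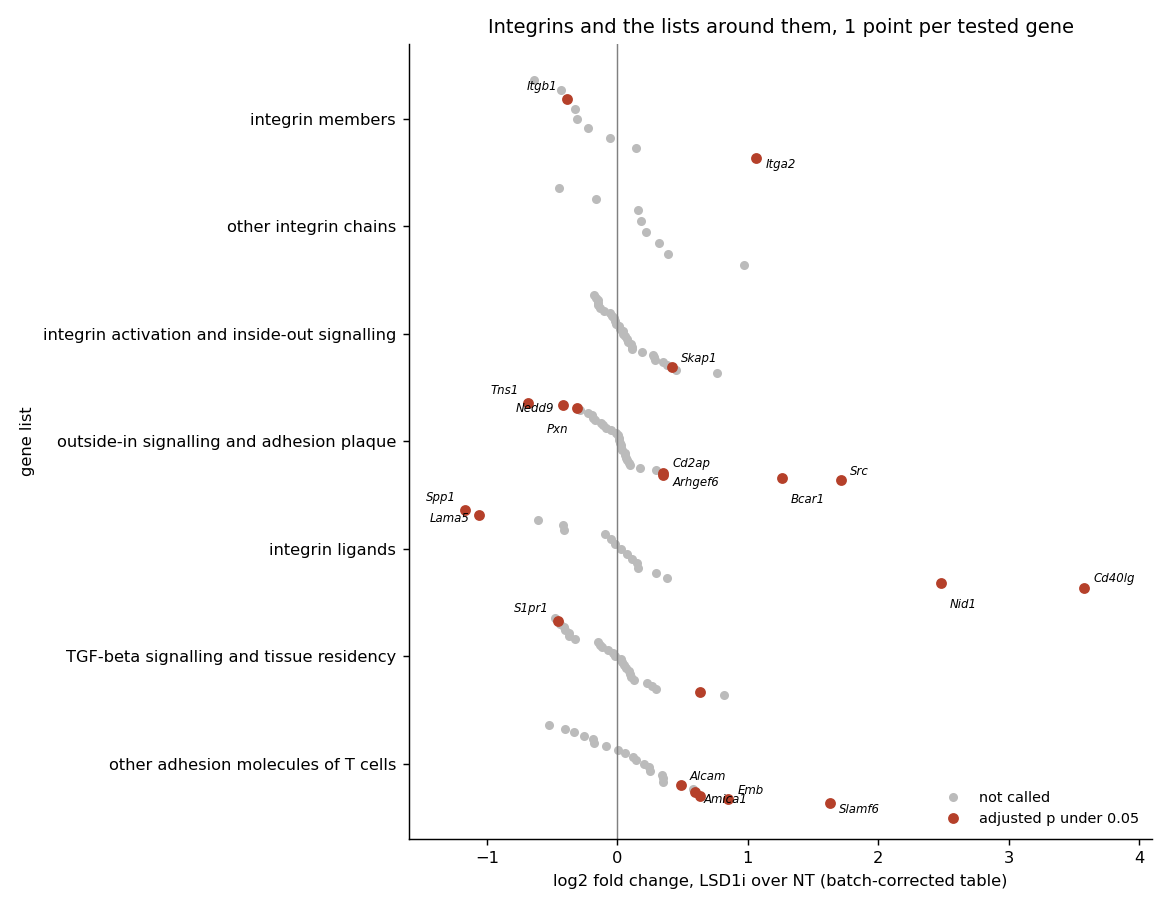
Log2 fold change of LSD1i over NT in the batch-corrected table (x axis) for each tested gene of the integrin members and 6 lists around them, genes at an adjusted p under 0.05 in red, named where the text describes them. Calls among the integrins are Itgb1 (−0.39) and Itga2 (1.07), and the plaque list holds calls on both sides, Src highest at 1.71.

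The genes whose log2 CPM ran most like that of Itgb1 over the 9 libraries were Pxn (Pearson's r = 0.975), Wisp1 (0.975) and Tmem163 (0.973), given as a description of libraries that share the treatment, the batches and the correction. All 3 were called lower in LSD1i (−0.31, −1.19 and −0.74). For Itga2 they included 3300002I08Rik (0.951) and Ranbp9 (0.941), neither of which passed (0.48 and 0.35, adjusted p = 0.284 and 0.0587).

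The authors' deposited table gave Itgb1 a log2 fold change of −0.38 with an adjusted p of 0.0559, and Itga2 one of 1.07 with an adjusted p of 0.0411. It marked 94 genes as up and 44 as down, and 0 of the 10 integrin chains. The genes it marked had an absolute log2 fold change of at least 1.20, which neither chain reached in the authors' deposited table.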

How the data were processed

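RNA-seq libraries were made with the SMARTER mRNA-Seq kit from total RNA of CD8+ T cells, per the labels' protocols, and build mm9 with STAR, featureCounts and edgeR comes from the submitters' processing notes. The sources used here give no versions, strand setting or correction method. The authors deposited raw counts per gene and batch-corrected counts, treated as estimated counts and rounded to whole numbers. The authors' deposited table of their comparison holds log2 fold changes, an F score and p-values (with adjusted p-values). The members and lists were chosen with earlier results of these data known. All 10 members, the called genes of each list (up to 6, by p), otherwise its smallest p-values, and the 3 genes most correlated with each called member were named. Of these, 2 genes are not reported here, though counts over lists include them.

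Groups were compared with edgeR 4.0.16 (R 4.3.3), with TMM scaling, a low-count filter by group (minimum count 10, total 15) and adjustment over all tested genes. The fit was tested on simulated counts without batches, batch correction or exchanged names. It recovered 89 of 99 genes changed by 1 on the log2 scale and 97 of 99 changed by 2, with 9 false calls among 195. The simulation cannot show how the fit behaves with smaller changes or with corrected batches. Errors of fold changes are standard errors, obtained by dividing the unshrunk coefficient by the root of its F statistic. The raw libraries were matched to the batch-corrected ones by genes that were zero in only 1 table (0 for each match, 1336 or more for the next best). Deviations of the corrected to raw ratio correlated at 0.755 to 0.980 within the batches and −0.962 to −0.790 between them. Every pair of same-group libraries differed beyond sampling noise (lowest chi-square per degree of freedom 7.43). Alternatives were DESeq2 1.42.0, RLE scaling, other filters, raw counts, batch term, replicate block, single batches and leaving out each library.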

Additional observations from a re-analysis of the deposited data

Results flagged for a closer look

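For Itga6, LSD1i 3 was at 43.4 CPM while the other LSD1i libraries were at 36.9 to 37.3 CPM, a gap of 0.942 of the range of the 4 libraries. Of the 20 groups of libraries examined this way (10 chains in LSD1i and in NT), this was the one flagged, where chance flags about 1 in 20. The library came from the batch of replicates 3 to 5, and its part in the fold change of Itga6 can be read from the fit without it, given below.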

How the results depend on the processing

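In all, 397 genes passed in the batch-corrected table. With uncorrected counts the number was 0 with the raw table's own names, 84 with the other names and no batch term, 220 with the batch term, 117 in replicates 3 to 5 and 8 in replicates 1 and 2. DESeq2 called 656, and leaving out each library in turn gave 219 (without LSD1i 4) to 432 (without NT 1), with 228 without LSD1i 1 and 251 without LSD1i 3. Of the integrin chains 2 were called, against 0 in uncorrected counts with either names and no batch term and in each batch alone, and 1 with the batch term, in DESeq2, without a filter, at a minimum count of 50 (where Itga2 is not tested) and on leaving out any 1 library. With the raw table's own names the fold changes of Itga4 (0.18), Itga6 (0.20), Itgal (0.48), Itgav (0.048), Itgb2 (0.19), Itga5 (0.55), Tns1 (0.30) and Pxn (0.084) turned above 0, and those of Itgb5 (−0.058) and Amica1 (−0.049) below it. In replicates 3 to 5 Itgal (0.081) and Itgb2 (0.064) turned, in replicates 1 and 2 Itgb7 (−0.038) and Itgb3 (−0.14), and without NT 1 Itgb2 (0.0011, with −0.092 the lowest on leaving out any 1 library). The cause of each of these changes was not tested. RLE scaling changed no call among the chains, and without LSD1i 3 Itga6 was at −0.36 (adjusted p = 0.162).

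Whether the replicate numbers pair the samples cannot be settled from so few corrected libraries, some of disputed name. Same-numbered LSD1i and NT libraries deviated with correlations of −0.149, 0.459, 0.132 and −0.376. None correlated best with its own number, though replicate 2 came near (0.459, against 0.493 with another number). With the replicate number as a block 326 genes passed in the batch-corrected table and 352 in uncorrected counts. Among the chains the block called Itgb1 and Itga4 (−0.76, adjusted p = 0.0419) and not Itga2 (0.995, adjusted p = 0.185) in the batch-corrected table, and in uncorrected counts 3, including Itga4 (adjusted p = 0.0335) and Itgav (adjusted p = 0.0415). Depth limits Itga1, Itga2 and Itgae, whose raw reads were at most 6, 30 and 34 in a library.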
